A study of Mus musculus with 24 samples.

Results

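The 35 genes described here are genes of skeletal muscle, and they were read as a sign of muscle tissue in bulk tumour samples. They were taken by symbol from a table of 27368 genes, and all 35 were found. They include the regulators of muscle formation, the contractile proteins of developing, fast and slow fibres, and the scaffold of the sarcomere, the contractile unit. The others handle calcium and energy in muscle or mark its breakdown. The list was put together with earlier results of these data known and was in part selected on the contrast between irradiated and unirradiated tumours. Fold changes and calls on that contrast, and on its 4 pairs of groups, are therefore given as a description of genes already chosen on it. They are no evidence of an effect.

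RNA was sequenced from 24 tumours of SCC7, a mouse squamous carcinoma line, grown under the skin of the flank of female C3H mice. About 1000000 cells were given per mouse, aged 6 to 8 weeks, and treatment started once tumours averaged about 300 mm3. The cells overexpressed the microRNA miR-21-5p (OE) or carried the empty vector (NC). X-rays (IR) reached the tumour alone, behind a lead shield, at 8 Gy per day on 3 days. Olaparib, which blocks PARP enzymes in DNA repair, was injected into the abdomen at 50 mg/kg, 2 h before each irradiation, and again on the day after the last.

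The 8 groups of 3 tumours were EI (OE, IR), EIO (OE, IR and olaparib), I (NC, IR), IO (NC, IR and olaparib), EO (OE, olaparib), ES (OE, sham), O (NC, olaparib) and S (NC, sham). A tumour is named below by its group letters and its mouse number. These letters come from the coded identifier of each tumour. The written treatment and line labels name the same group for 5 tumours and another group for 19, and 8 tumours change between irradiated and unirradiated. The coded reading was used because an earlier analysis of these data had preferred it once the result of a label check was known. How the tumours were trimmed from the flank is not given in the sources used here.

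Libraries held 37099055 to 40004502 counted reads, so total depth was nearly even. Levels below are counts per 1000000 (CPM) after TMM scaling, a correction for library composition whose factor ran from 0.8065 in EIO-744 to 1.114 in I-739. EIO-744 stood apart as a library: the chi-square per gene between its counts and those of its 2 group mates was 936 and 1062, against 14.4 to 472 for the other pairs within groups. Its Col1a1, a fibrillar collagen of connective tissue, was at 43295 CPM, and its Krt8, a keratin of simple epithelia, was at 0.285 CPM. The 22 tumours other than EIO-744 and I-732 had 309 to 1269 CPM of Col1a1 and 141 to 915 CPM of Krt8.

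In adult mouse muscle, fibres are classed by the myosin heavy chain they carry. Myh4, Myh1 and Myh2 encode the fast chains of type IIb, IIx and IIa fibres, and Myh7 encodes the slow chain of type I fibres. Myh3 and Myh8 encode the embryonic and perinatal chains, which return for a time in regenerating fibres. Myod1 and Myog are transcription factors that drive myoblasts to differentiate. Trim63 and Fbxo32 encode the ubiquitin ligases MuRF1 and atrogin-1, which are induced when muscle wastes after fasting, glucocorticoids or loss of its nerve.

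Counts of these genes were found in all 24 tumours, 26 of the 35 in every tumour, and were spread very unevenly between them. The 35 genes together took 2.44% of all counts in I-732 and 0.559% in EIO-744, and 0.0197% to 0.261% in the other 22 tumours, whose median was 0.0456%. The Wilson 95% interval was 2.4315% to 2.4413% in I-732 and 0.5563% to 0.5610% in EIO-744, and it covers counting error only. I-732 held 52.0% of the counts of these genes in the whole series, and EIO-744 held 12.3%. In bulk samples more muscle tissue and more RNA per muscle cell cannot be told apart.

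**Figure D1:**
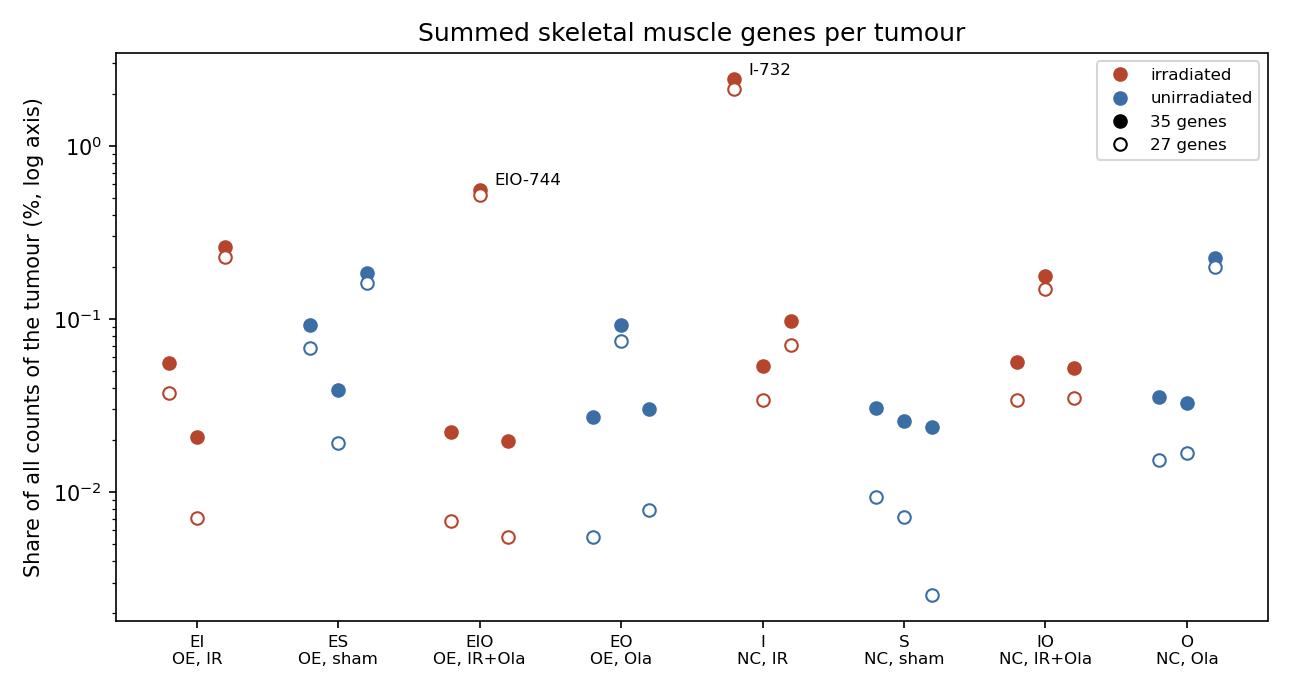
Share of all counts taken by the 35 skeletal muscle genes (filled points) and by 27 of them, without 8 genes that other tumour cells can express (open points), in each of 24 tumours, with the share in percent on a log axis and the 8 coded groups along the other axis. I-732 at 2.44% and EIO-744 at 0.559% lie above every other tumour, and irradiated and unirradiated tumours otherwise overlap.

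Tumours of 1 group differed by up to 45.4-fold in this sum, as in the I tumours. The EI tumours had 0.056%, 0.0207% and 0.261% of counts in the 35 genes, against 0.0919%, 0.0389% and 0.184% in the ES tumours. The EIO tumours had 0.0223%, 0.559% and 0.0197%, against 0.0272%, 0.0928% and 0.0301% in the EO tumours. The EI and ES values overlapped, and among the EIO tumours EIO-744 alone was above all EO tumours. In the I tumours the share was 2.44%, 0.0536% and 0.0976%, against 0.0307%, 0.0256% and 0.0239% in the S tumours. In the IO tumours it was 0.0562%, 0.176% and 0.0523%, against 0.0356%, 0.0325% and 0.225% in the O tumours. I and S did not overlap. S was the group of least spread in this sum, with 1.28-fold between its highest and lowest tumour, and 1 gene, Eno3, held much of it. O-724, an unirradiated tumour, was above all 3 IO tumours.

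Of the listed genes, 8 can be expressed by other cells of a tumour, namely Des, Pdk4, Fbxo32, Actc1, Acsl6, Tnnt1, Eno3 and Kcnc4. Without them the remaining 27 genes ran from 0.00546% of counts in EIO-749 to 2.14% in I-732 among irradiated tumours, and from 0.00255% in S-761 to 0.2% in O-724 among unirradiated tumours. The highest tumour was 392-fold above the lowest among irradiated and 78.2-fold among unirradiated tumours, against 123-fold and 9.38-fold with all 35 genes. Eno3, the muscle enolase of glycolysis, had the lowest correlation with the mean of the other members, at a Pearson r of 0.23 over log2(CPM + 0.5) in 24 tumours. Eno3 spanned 48.0 to 199 CPM in irradiated tumours, against 89.2 to 228 CPM in unirradiated ones. It was highest in S-761, the tumour with the lowest share for the 27 genes. Of the counts of the 35 genes, Eno3 made up 5988 of 12026 in S-758, 5436 of 9867 in S-759 and 7460 of 9028 in S-761. The 27 genes took 0.00938%, 0.0072% and 0.00255% of counts in these S tumours, against 2.14%, 0.0341% and 0.0703% in the I tumours. The even sum of the 35 genes in S is therefore not an even level of the 27. Fbxo32 had an r of 0.51, and 0.19 without I-732 and EIO-744. Both genes were well above 0 in tumours that had little of the other muscle genes. Ttn, kept among the 27, made up 294 of their 962 counts in S-761 and 506 of 2184 in EIO-749.

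Most members did move together. Over the 24 tumours 21 of 35 had an r above 0.8 with the mean of the others, and 18 did so over the 22 tumours without I-732 and EIO-744. Neb, Ryr1, Tnnt3 and Tnni2, which encode the giant thin filament protein nebulin, the calcium release channel and a pair of fast troponins, each reached 0.99. These values describe how the tumours vary, and all genes of a tumour share its library. I-732 had the highest level of 22 members and EIO-744 of 11. The exceptions were Myh7, highest in EI-752 at 3.06 CPM, and Eno3. For 22 members the 2 highest tumours were these 2.

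**Figure D2:**
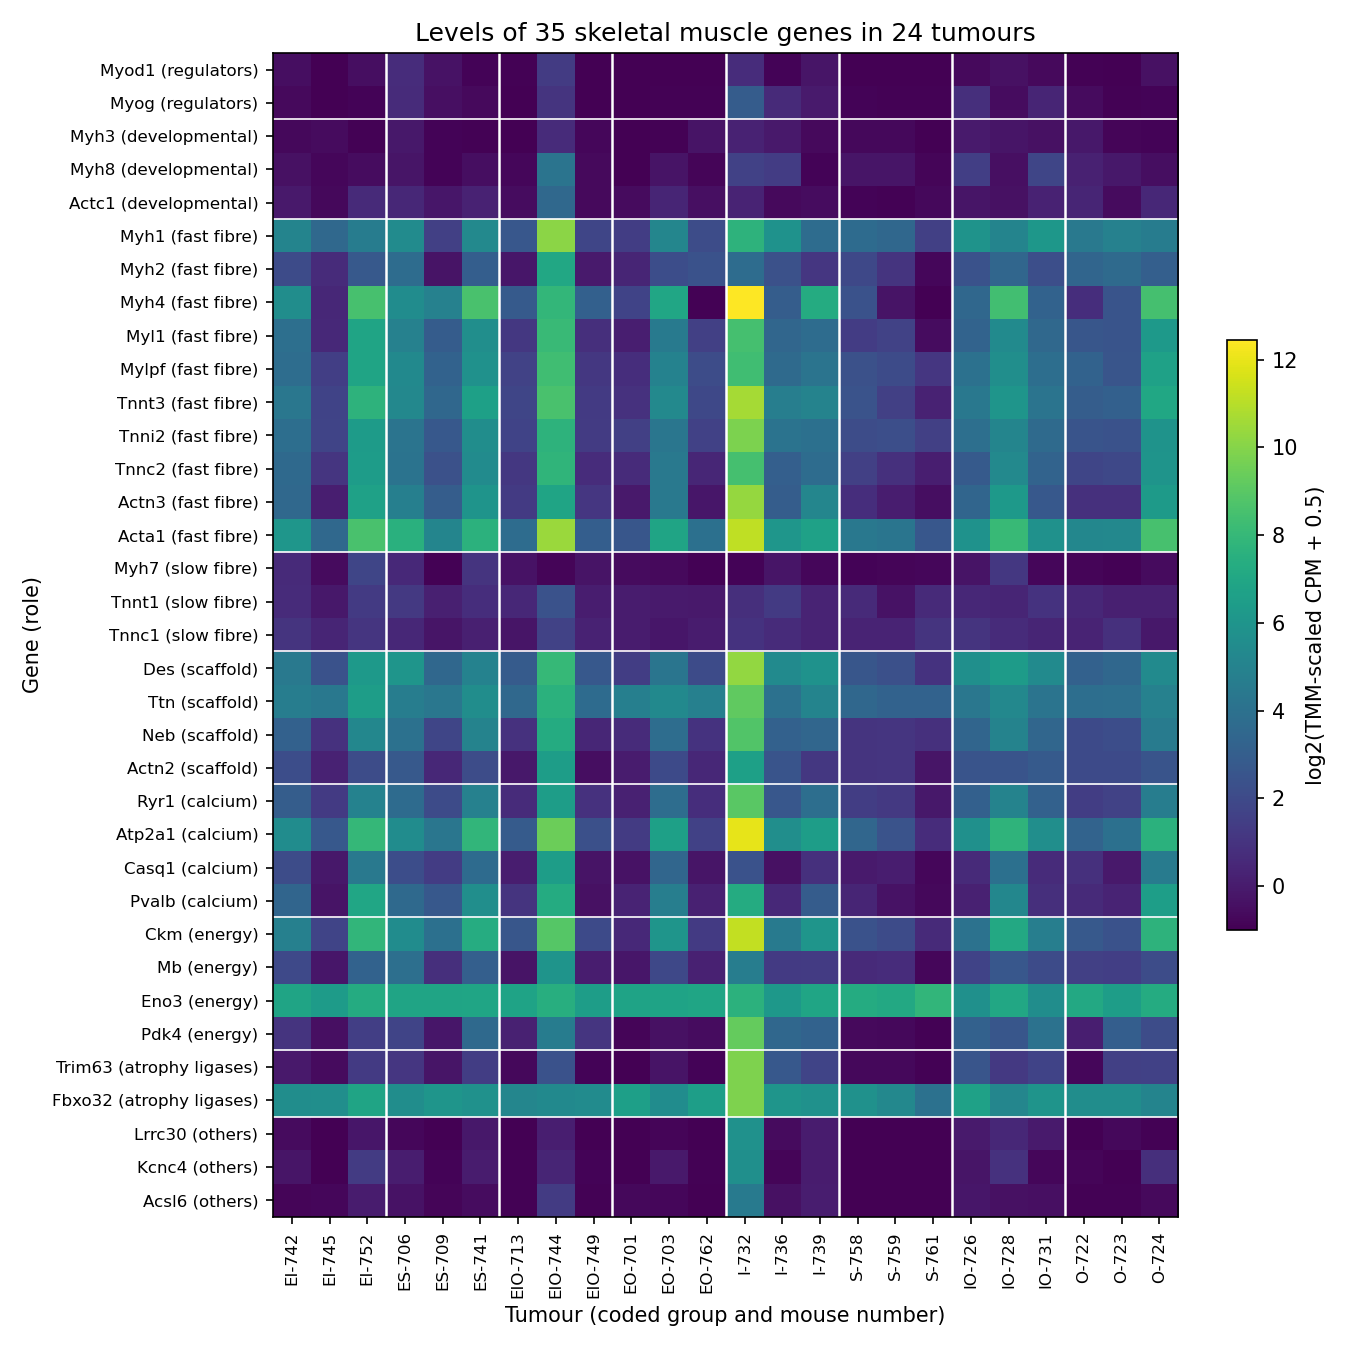
Level of each of the 35 genes (rows, ordered by role) in each of 24 tumours (columns, in coded groups), as log2(TMM-scaled CPM + 0.5) on the colour scale. The bright columns are I-732 and EIO-744, fainter ones are EI-752, IO-728, ES-741 and O-724, and Eno3 and Fbxo32 are at a like level in nearly all tumours.

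Fast fibre genes held the most counts of any role in I-732 and EIO-744. Myh4 was at 5620 CPM in I-732 and 244 CPM in EIO-744, and at 0.936 to 369 CPM in the other 10 irradiated tumours with a median of 9.72 CPM. The 12 unirradiated tumours had 0 to 380 CPM of Myh4 with a median of 4.96 CPM. Only I-732 lay above every unirradiated tumour. Myh1 ran from 2.95 to 1125 CPM in irradiated tumours with a median of 33.1 CPM, against 2.27 to 44.5 CPM with a median of 17.0 CPM in unirradiated tumours. EIO-744 led, I-732 followed at 204 CPM, and 5 irradiated tumours were above all unirradiated ones. Myh2 ran from 0.371 to 136 CPM with a median of 4.4 CPM in irradiated tumours and from 0.0917 to 13.1 CPM with a median of 4.44 CPM in unirradiated tumours. EIO-744 was its sole irradiated tumour above all unirradiated ones.

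Acta1, the alpha-actin of skeletal muscle thin filaments, was at 2299 CPM in I-732 and 1360 CPM in EIO-744. Its lowest, median and highest levels were 7.49, 66.3 and 2299 CPM in irradiated tumours and 5.62, 35.6 and 377 CPM in unirradiated tumours. The other 6 fast members, the myosin light chains Myl1 and Mylpf, the fast troponins Tnnt3, Tnni2 and Tnnc2, and Actn3 of the fast-fibre Z-disc, were each highest in I-732, between 326 and 1572 CPM, and next highest in EIO-744, between 117 and 385 CPM. EI-752 followed in each of the 6, at 84.6 to 204 CPM. Per kilobase of the longest transcript, the level in I-732 was 1590 CPM for Acta1, 1457 CPM for Tnnt3 and 934 CPM for Myh4. On that scale EIO-744 had 941 CPM of Acta1, 423 CPM of Mylpf and 185 CPM of Myh1.

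Slow fibre genes were low in every tumour. Myh7 had 0.0542, 0.301 and 3.06 CPM as its lowest, median and highest level in irradiated tumours, and 0.0251, 0.0846 and 1.57 CPM in unirradiated tumours. It was near its floor in the muscle-rich pair, with 0.0542 CPM in I-732 and 0.0633 CPM in EIO-744, where 3 counts correspond to 0.0789 and 0.0766 CPM before TMM scaling. Tnnt1, slow troponin T, had 0.413, 1.0 and 4.69 CPM in irradiated tumours, against 0.284, 0.637 and 1.87 CPM in unirradiated tumours. Tnnc1, the troponin C of slow and heart muscle, had 0.345, 1.06 and 2.6 CPM, against 0.351, 0.698 and 1.5 CPM. The ranges overlapped widely for all 3.

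The myosin heavy chains differed in make-up from tumour to tumour. Among the counts per kilobase of Myh4, Myh1, Myh2, Myh7, Myh8 and Myh3, Myh4 held 96.3% in I-732, and Myh1 held 73.7% in EIO-744, where Myh4 held 16.1%. In the 23 tumours with at least 100 counts over these 6 genes, Myh4 held over 50% in 11, Myh1 in 9 and Myh2 in 1, and in EO-701 and ES-706 no chain did. Myh4 held over 80% in I-732, I-739, EI-752, IO-728, ES-741, ES-709 and O-724. Myh1 held 76.2% in IO-726, 81.0% in IO-731 and 79.6% in I-736. It held 82.3% in EI-745, over 503 counts, and 82.1% in S-759, over 514 counts. EO-762 was led by Myh2 at 52.4%, over 357 counts. Myh4-led and Myh1-led tumours occurred side by side in the EI, EIO, I, IO and O groups, while no ES tumour was led by Myh1 and no S tumour by Myh4.

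**Figure D3:**
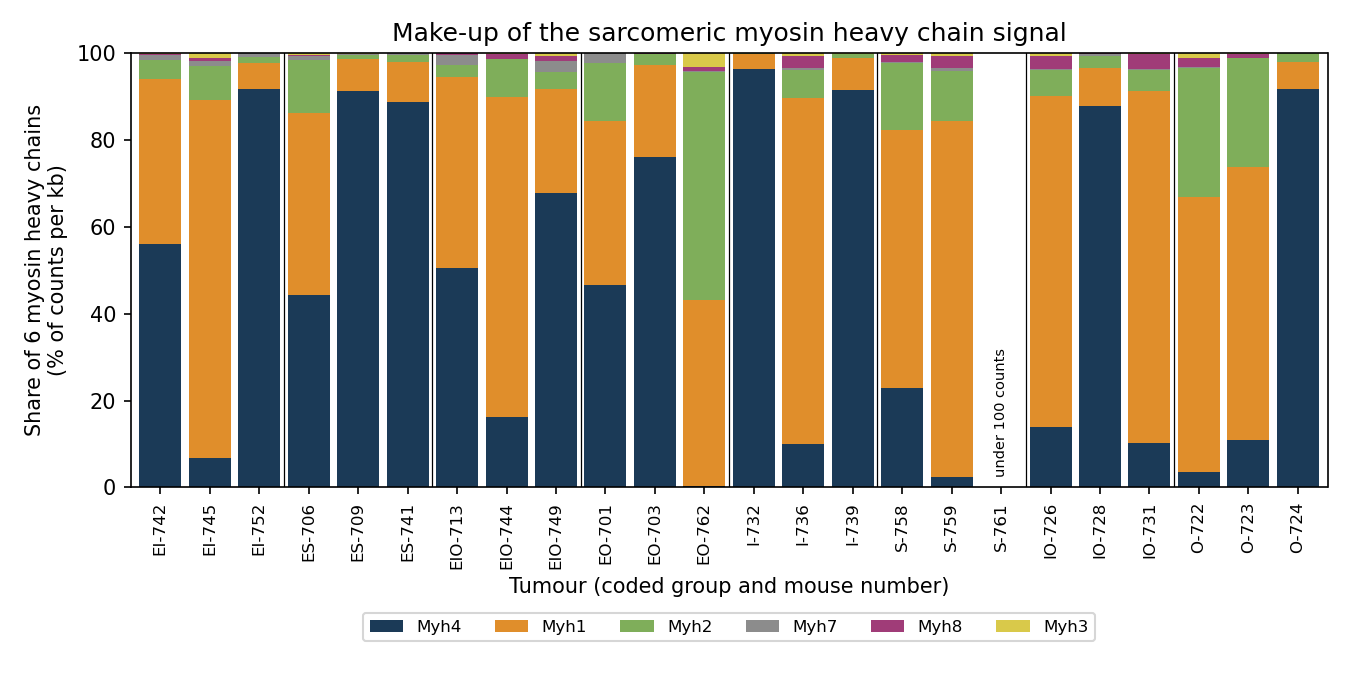
Share of each of 6 sarcomeric myosin heavy chain genes in their summed counts per kilobase (bars, percent) in each of 24 tumours, ordered by coded group. Myh4 leads at 96.3% in I-732 and Myh1 at 73.7% in EIO-744, and S-761 is blank because it has under 100 counts.

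These shares rest on counts that can be divided between copies. Of the 50-base stretches of the longest transcript, 26.1% of those of Myh1, 26.7% of Myh2, 18.6% of Myh4 and 19.9% of Myh8 also occur in another of the 6 chains, against 0.21% for Myh7 and 3.66% for Myh3. Reads from such stretches could be counted to either gene or dropped, and how the authors' counting treated them is not given in the sources used here. The actin genes Acta1, Actc1, Acta2 and Actg2 shared none.

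Myh4 and Myh1 lie next to each other on chromosome 11, and their upstream sequences are shown because one or the other of them led in nearly all tumours. The 250 bases before the start of Myh4 (chr11:67237562-67237811, plus strand) and of Myh1 (chr11:67199852-67200101, plus strand) are given 5′ to 3′ from RefSeq on GRCm38.p6. Capitals mark matches on either strand to the E-box CANNTG, which Myod1 and Myog bind, to the start-site element TATAAA, to the FoxO site TGTTTAC, to the MEF2 site or to the CArG box.
Myh4: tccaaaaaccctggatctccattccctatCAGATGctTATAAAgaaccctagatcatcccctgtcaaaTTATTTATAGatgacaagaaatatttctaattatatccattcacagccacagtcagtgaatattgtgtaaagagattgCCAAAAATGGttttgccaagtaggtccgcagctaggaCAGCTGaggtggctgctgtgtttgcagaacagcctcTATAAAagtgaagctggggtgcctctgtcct
Myh1: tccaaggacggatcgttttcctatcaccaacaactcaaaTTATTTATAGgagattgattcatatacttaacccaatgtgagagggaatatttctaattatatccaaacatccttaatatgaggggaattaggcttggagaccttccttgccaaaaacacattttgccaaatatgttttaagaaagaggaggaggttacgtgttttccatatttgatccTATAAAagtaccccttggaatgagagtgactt
Both windows hold a TATAAA near the start and a MEF2 match further upstream, with the same letters in both,, which contains a TATAAA on the other strand. The Myh4 window also has a CArG box and 2 E-boxes, of which 1 is CAGCTG, and the Myh1 window has no E-box. Over the 29 members with a window in the RefSeq table, CAGCTG occurred in 37.9% of the 250-base windows, against 12.8% of all 27025, and CANNTG, which includes it, in 82.8% against 66.0%. MEF2 matches stood in 17.2% against 3.01%, CArG boxes in 10.3% against 1.4%, TATAAA in 27.6% against 13.0% and TGTTTAC in 3.45% against 3.09%. A match describes the letters and not the binding of a factor.

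Genes of developing and regenerating muscle were low. Myh8 was at 17.6 CPM in EIO-744, 2.97 CPM in IO-731, 2.55 CPM in I-732, 2.37 CPM in IO-726 and 2.11 CPM in I-736. All other irradiated tumours had 0.0477 to 0.257 CPM, and the 12 unirradiated tumours had 0 to 0.669 CPM with a median of 0.261 CPM, above the irradiated median of 0.244 CPM. Within the myosins Myh8 held 1.14% in EIO-744, 3.4% in IO-731, 3.0% in IO-726 and 2.88% in I-736, but 0.0427% in I-732. Myh3 had 0, 0.207 and 1.05 CPM as its lowest, median and highest level in irradiated tumours and 0, 0.064 and 0.423 CPM in unirradiated tumours. Actc1, the cardiac alpha-actin that developing skeletal muscle also uses, was at 11.1 CPM in EIO-744 and between 0.11 and 1.0 CPM in the other irradiated tumours, against 0.0259 to 0.937 CPM in the unirradiated tumours. The medians of Actc1 were 0.309 and 0.304 CPM.

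The myogenic regulators were low in most tumours. Myog was at 7.1 CPM in I-732, 1.55 CPM in EIO-744 and 1.26 CPM in IO-726, the 3 irradiated tumours above every unirradiated one. Its median was 0.329 CPM in irradiated and 0.0399 CPM in unirradiated tumours, whose highest, ES-706, had 1.1 CPM. Myod1 was at 2.03 CPM in EIO-744, 1.16 CPM in I-732 and 1.15 CPM in ES-706, with medians of 0.167 CPM in irradiated and 0 in unirradiated tumours. It had no count in any EO or S tumour. Of the markers of satellite cells, the stem cells of muscle, Pax7 was highest in EIO-744 at 0.412 CPM and Myf5 in I-732 at 0.19 CPM. In the 22 tumours other than these 2 they reached at most 0.129 and 0.052 CPM. Of the same list, Cdh15 was at 5.53 CPM in I-732 and 0.982 CPM in EIO-744, and at most 1.42 CPM in those 22. Heyl was at 0.785 and 5.16 CPM, and at most 2.61 CPM. Megf10, Chodl, Calcr and Fgfr4 were at most 0.46, 0.697, 0.19 and 0.792 CPM in any tumour. Vcam1 and Sdc4 went the other way in EIO-744, at 279 and 147 CPM, below all of those 22.

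Among the 35 genes, Trim63 had the largest ratio of the highest tumour to the third highest. It was at 929 CPM in I-732, 171-fold above IO-726, the third highest. The EI tumours had 0.437, 0.165 and 1.98 CPM of Trim63, against 1.72, 0.351 and 2.21 CPM in the ES tumours. The EIO tumours had 0.106, 4.69 and 0.0496 CPM, against 0, 0.323 and 0.0515 CPM in the EO tumours. Irradiated and unirradiated OE tumours overlapped in both pairs. The I tumours had 929, 5.98 and 2.93 CPM, against 0.104, 0.103 and 0.0306 CPM in the S tumours. The IO tumours had 5.44, 1.85 and 2.77 CPM, against 0.0991, 2.46 and 2.49 CPM in the O tumours. I lay wholly above S, and IO overlapped O.

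Fbxo32 was at 921 CPM in I-732 and at 35.2 to 114 CPM in the other irradiated tumours, against 15.9 to 95.5 CPM in unirradiated tumours. The median of Fbxo32 was 52.9 CPM in irradiated and 48.0 CPM in unirradiated tumours. Pdk4, the kinase that shuts off pyruvate oxidation in fasting muscle, was at 625 CPM in I-732, 24.3 CPM in EIO-744 and 16.2 CPM in IO-731. Its lowest and median levels were 0.22 and 7.05 CPM in irradiated tumours, against 0.0306 and 0.325 CPM in unirradiated tumours, whose highest was ES-741 at 11.5 CPM. Pdk4 and Trim63 had a Pearson r of 0.94 over the 24 tumours and 0.92 over the 22 without I-732 and EIO-744. Of the remaining members Lrrc30, a leucine-rich repeat gene, was at 54.5 CPM in I-732, Kcnc4, a potassium channel, at 51.5 CPM, and Acsl6, an acyl-CoA synthetase, at 21.7 CPM. In all other tumours these 3 genes reached at most 0.927, 2.06 and 2.03 CPM.

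The upstream windows of the regulator Myog (chr1:134289754-134290003, plus strand) and of Trim63 (chr4:134314870-134315119, plus strand) are shown because these genes set I-732 apart and had an r of 0.89 with each other over the 24 tumours, with 0.71 over the 22. Capitals mark the same motifs in 250 bases from RefSeq on GRCm38.p6.
Trim63: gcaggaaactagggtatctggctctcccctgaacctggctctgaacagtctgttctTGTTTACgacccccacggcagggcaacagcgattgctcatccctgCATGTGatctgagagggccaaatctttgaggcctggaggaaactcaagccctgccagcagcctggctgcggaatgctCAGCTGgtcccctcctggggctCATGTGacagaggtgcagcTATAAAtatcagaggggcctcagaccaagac
Myog: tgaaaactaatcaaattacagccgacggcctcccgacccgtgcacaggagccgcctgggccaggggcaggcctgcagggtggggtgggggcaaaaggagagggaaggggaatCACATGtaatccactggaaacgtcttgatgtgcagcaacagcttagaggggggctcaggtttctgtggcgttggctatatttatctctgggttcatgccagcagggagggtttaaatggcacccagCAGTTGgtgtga
Trim63 was the 1 member of 29 whose window held TGTTTAC, and it also held a TATAAA and 3 E-boxes, 1 of them CAGCTG. Myog held 2 E-boxes. The window of Fbxo32 was not used here.

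Relative to the fast fibre genes, several irradiated NC tumours had much Trim63 and little Casq1. Per 1000 counts of the 10 fast members, Trim63 had 71.8 counts in I-732, 27.7 in I-736, 25.9 in IO-726, 13.2 in IO-731 and 7.29 in I-739. The 6 irradiated OE tumours had 1.06 to 4.58, and the unirradiated tumours 0 to 21.8, the highest being O-723. Some of these ratios rest on few counts, as Trim63 had 2, 4 and 6 counts in EIO-749, EIO-713 and EI-745. Casq1, calsequestrin, which stores calcium in the fast fibre's reticulum, had 0.37 in I-732, 1.21 in I-736, 3.32 in I-739, 4.79 in IO-726 and 5.25 in IO-731. IO-728 was unlike these 5, with 1.96 of Trim63 and 16.1 of Casq1. The 6 irradiated OE tumours had 11.2 to 20.3 of Casq1, and the unirradiated tumours 3.91 to 23.8, the lowest again O-723. Casq1 also had few counts in some tumours, with 13, 21 and 15 in EIO-749, EIO-713 and EI-745 and 10 in I-736. In CPM, Casq1 was at 4.79 in I-732 and 89.4 in EIO-744, although I-732 had the more muscle RNA.

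Atp2a1 was the calcium gene with most counts. Atp2a1, the SERCA1 pump that returns calcium to the reticulum, had 222 to 302 counts per 1000 fast-fibre counts in the 6 irradiated NC tumours, 152 to 195 in the 6 irradiated OE tumours and 67.9 to 237 in unirradiated tumours. Its lowest, median and highest levels were 4.39, 52.4 and 3913 CPM in irradiated tumours, against 1.13, 12.7 and 234 CPM in unirradiated ones. Pvalb, parvalbumin, a calcium buffer of the fastest fibres, had 0.248, 4.21 and 156 CPM, against 0.122, 0.925 and 92.4 CPM. Its level followed Myh4, with an r of 0.92 over 24 tumours, and Casq1, with 0.93. Ryr1 was at 523 CPM in I-732 and 89.6 CPM in EIO-744, and at most 32.5 CPM elsewhere. The ratios were chosen for display after their values were seen, so no difference between the OE and NC tumours was tested in them.

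**Figure D4:**
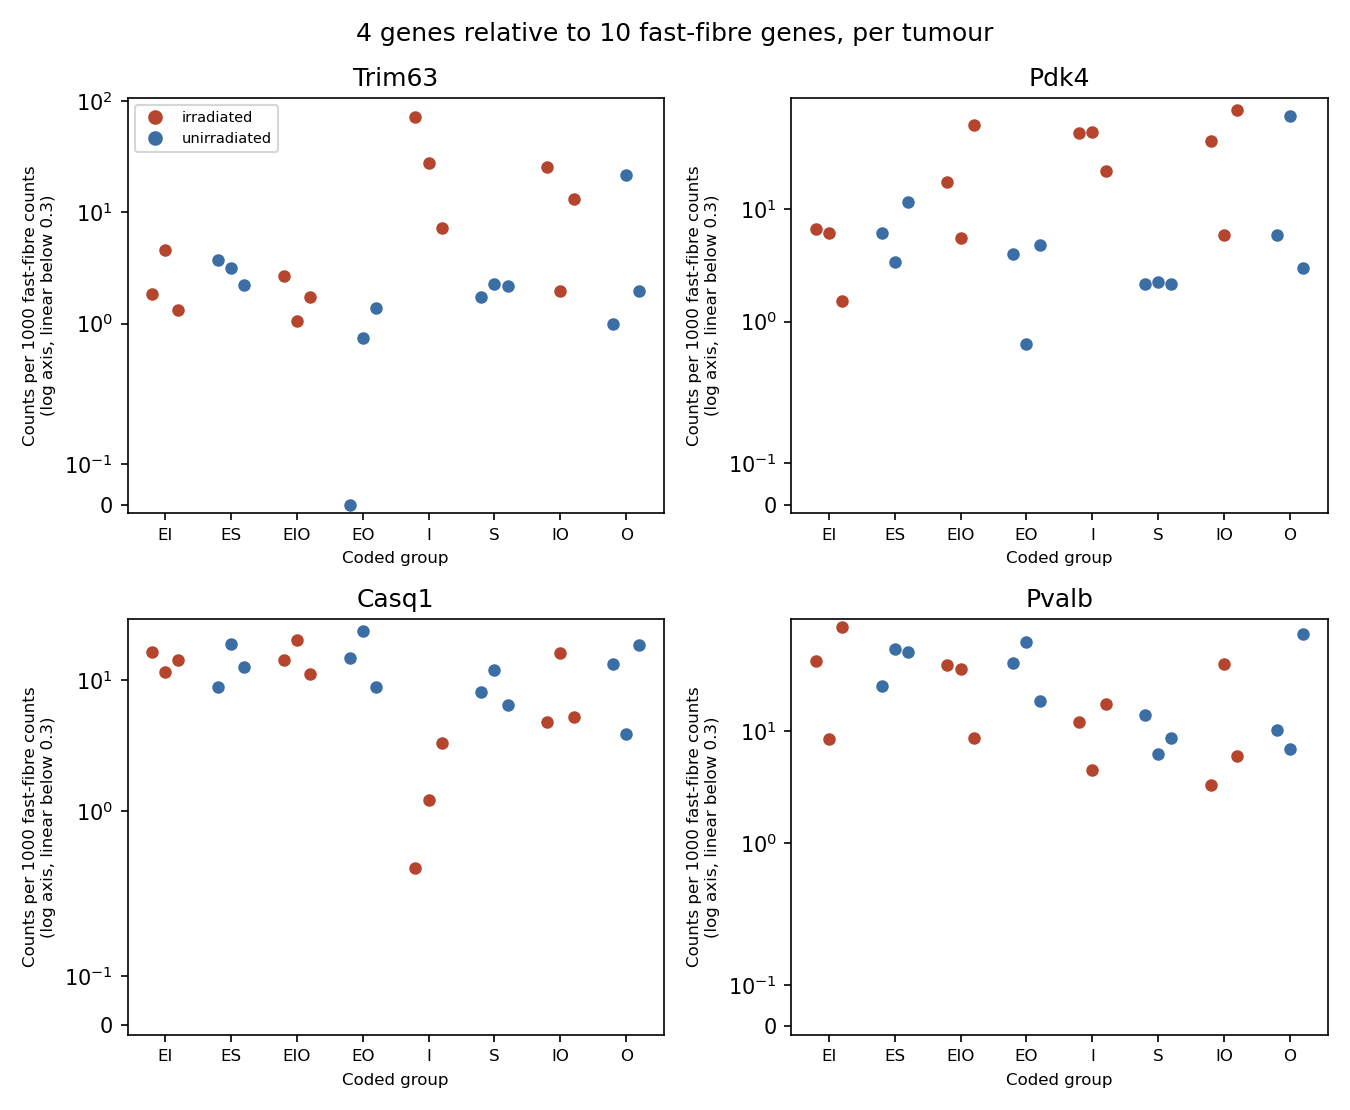
Counts of Trim63, Pdk4, Casq1 and Pvalb per 1000 counts of the 10 fast-fibre genes in each tumour (points), by coded group, on a log axis that is linear below 0.3. Among the I tumours Trim63 lies between 7.29 and 71.8 and Casq1 between 0.37 and 3.32, and O-723 is the unirradiated tumour with the most Trim63, at 21.8. Several points rest on few counts, such as 2 of Trim63 in EIO-749.

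Energy and scaffold genes other than Eno3 and Pdk4 had an r of 0.88 to 0.97 or, for Neb, 0.99 with the other members. Ckm, the creatine kinase of muscle, had 2.84, 27.7 and 2356 CPM as its lowest, median and highest level in irradiated tumours, against 0.975, 5.53 and 211 CPM in unirradiated tumours. I-732, EIO-744 and EI-752 were above every unirradiated tumour. Mb, myoglobin, the oxygen store of oxidative fibres, was higher in EIO-744 at 60.9 CPM than in I-732 at 25.5 CPM, and ES-706 followed at 14.5 CPM. Des, the desmin filament that ties sarcomeres together, had 4.74, 47.8 and 1233 CPM in irradiated tumours, against 1.44, 9.66 and 64.7 CPM in unirradiated ones, with 4 irradiated tumours above all others. Ttn, the giant spring titin, had 11.3, 23.2 and 567 CPM, against 8.95, 22.7 and 48.3 CPM. Neb and the Z-disc gene Actn2 were highest in I-732 at 452 and 98.8 CPM, with 152 and 90.9 CPM in EIO-744. In the other 22 tumours they reached at most 37.4 and 6.58 CPM.

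Over all 4 pairs of groups, irradiated against unirradiated, edgeR's quasi-likelihood test called 22 of the 35 members higher and none lower at an adjusted p below 0.05, against 21.7% of all 16560 genes called higher. DESeq2 called 24 higher, against 24.7% of all genes with an adjusted p, and gave no adjusted p for 6 members, Tnni2, Atp2a1, Pdk4, Trim63, Lrrc30 and Kcnc4. The median log2 fold change was 2.48 for the members and 0.041 for all genes. Since the list was selected on this contrast, these values only describe it. Among members given in full, the log2 fold change was 4.07 ± 0.87 (SE) for Pdk4, 3.93 ± 0.97 for Trim63, 2.93 ± 0.73 for Des and 2.74 ± 1.27 for Myh4. Eno3 was the sole member below zero, at -0.24 ± 0.19. The 13 members not called by edgeR were Myh3, Actc1, Myh2, Myh4, Mylpf, Myh7, Tnnt1, Tnnc1, Casq1, Pvalb, Mb, Eno3 and Fbxo32. Of these, DESeq2 called Myh4, Mylpf, Myh7, Tnnt1, Tnnc1, Pvalb, Mb and Fbxo32 higher.

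These counts rested on I-732 and EIO-744. Without I-732, 7 members were called higher, against 16.8% of all genes, and the median was 1.59. Without EIO-744, 4 were called, against 17.8% of all genes, with a median of 1.03. Without both, 3 were called, against 15.9% of all genes, the median was 0.26, and 27 of 35 were positive. The 3 were Myh7 at 1.72 ± 0.63 (SE), Pdk4 at 2.22 ± 0.54 and Acsl6, whose S tumours had no count. Trim63 was then at 1.32 ± 0.62, Des at 1.19 ± 0.47, Myh4 at 0.71 ± 1.13, Acta1 at 0.05 ± 0.63 and Myh2 at -0.9 ± 0.54. Counts also fell to 12 without EI-752, EO-762 or O-722, to 13 without ES-709, EO-701 or IO-728 and to 14 without ES-706. The share of all genes called in these last refits is not given, so nothing is read from their counts.

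**Figure D5:**
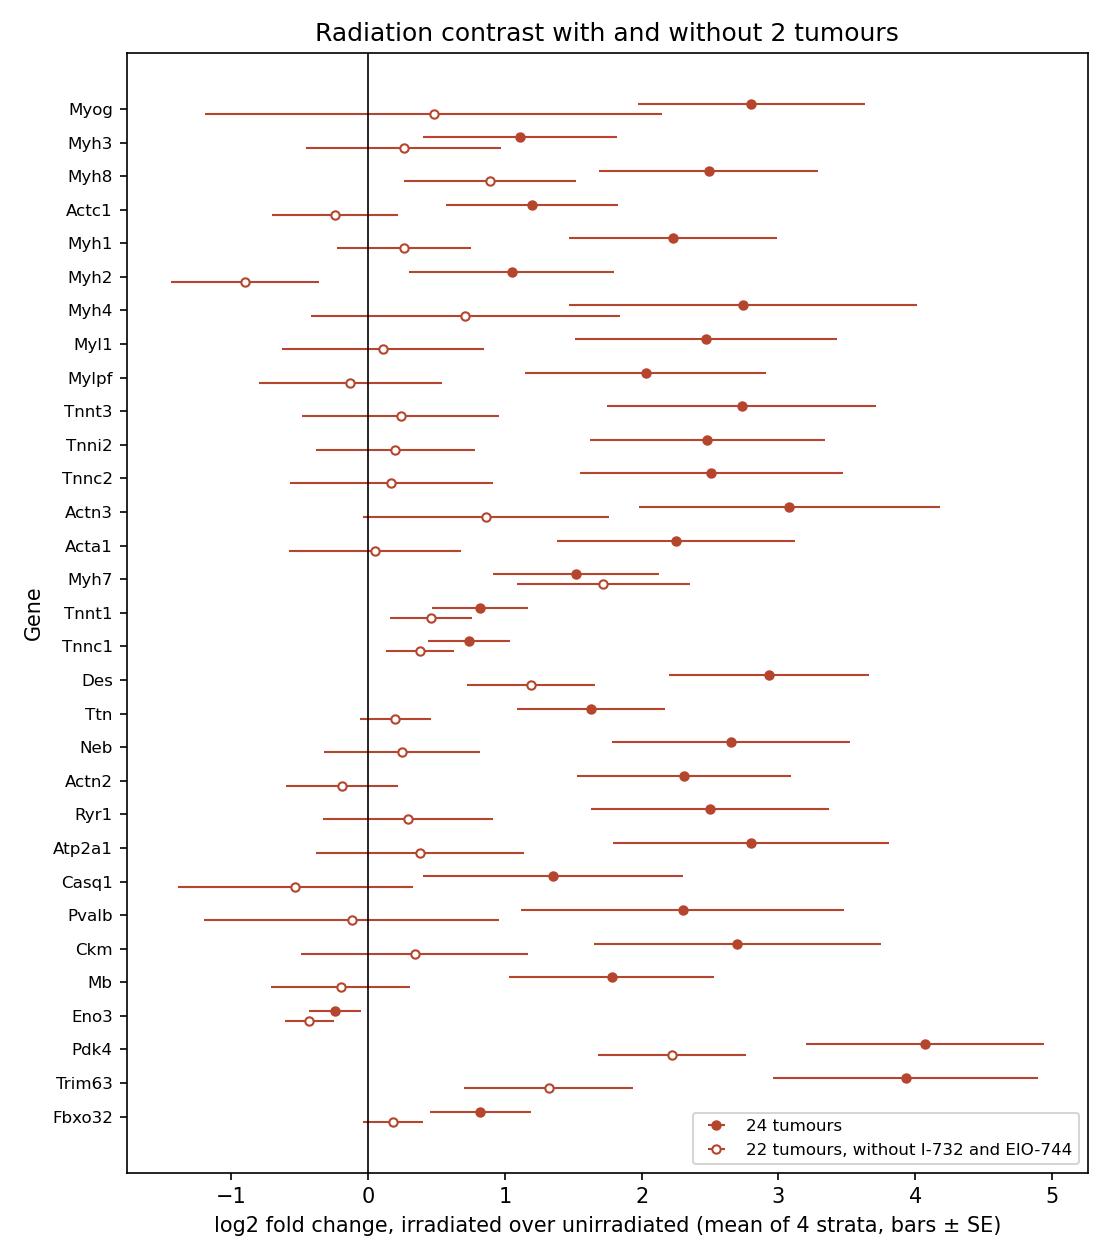
Log2 fold change of irradiated over unirradiated tumours, the mean of 4 pairs of groups, with SE as bars, for 31 members (those without a count in the S group are left out), from all 24 tumours (filled) and without I-732 and EIO-744 (open). Most open points lie near 0, those of Pdk4 at 2.22 and Myh7 at 1.72 do not, and the values are a description of genes chosen with this contrast known.

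The pairs of groups are parts of the contrast the genes were chosen on, so nothing is read from their counts or from the shares beside them. In I against S, 12 members were called higher by edgeR, where 4.61% of all genes were, and 18 by DESeq2, where 9.38% were. DESeq2 gave an adjusted p for 29 members in this pair and in EIO against EO. All 3 I tumours lay above all 3 S tumours for 28 of 35 members, and for 14.4% of all genes. The fitted median was 6.28, and 6.18 with the 4 genes without a count in S (Myod1, Lrrc30, Kcnc4 and Acsl6) set at their bound of 3 counts over the group. By that bound Lrrc30 was at least 691-fold and Myod1 at least 20.3-fold higher in I. Of the 2041 Lrrc30 counts in I, 2014 were in I-732, and without it the bounds were 13.7-fold for Lrrc30 and 8.65-fold for Myod1. The fitted median without I-732 was 2.65. The count was 0 without I-732, S-758 or S-761, 4 without S-759, 7 without I-736 or IO-731, 21 without I-739 and 25 without EIO-744. In EIO against EO, none was called by edgeR, where 5.4% of all genes were, 12 had an unadjusted p below 0.05 and DESeq2 called 10, where 11.2% of all genes were. The median was 3.14, and it was -1.95 without EIO-744, so its sign rested on that tumour. All 3 EIO tumours lay above all 3 EO tumours for 2 members, and for 11.6% of all genes. The edgeR count was 0 without EIO-744, 8 without EIO-749, 4 without EIO-713, 2 without I-739 and 1 without I-732.

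EI against ES and IO against O are given in the same way, and nothing is read from their counts either. DESeq2 gave an adjusted p for 27 members in each of these pairs. None was called in EI against ES by edgeR or DESeq2 and none had an unadjusted p below 0.05, with 0.181% of all genes called higher by edgeR and 2.72% by DESeq2. The median there was 0.01, and -1.53 without EI-752, -0.41 without ES-709 and 0.72 without ES-741, and no member lay without overlap above ES, against 17.3% of all genes. None was called in IO against O by edgeR or DESeq2, 2 had an unadjusted p below 0.05, and 0.821% of all genes were called higher by edgeR and 5.04% by DESeq2. The median was 0.46, and -0.09 without IO-728 and 2.04 without O-724, and 5 members did not overlap upward, against 17.7% of all genes. Whether the radiation difference itself differed between the pairs was not tested.

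By the written labels, irradiated against unirradiated tumours gave no called member in edgeR, 7 at an unadjusted p below 0.05, and 1 called higher and 1 lower in DESeq2. Of all genes 0.00604% were called by edgeR in that reading and 15.3% by DESeq2. The median over the members was 1.02.

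Olaparib and the cell line were not used to choose the genes. Over 4 pairs of groups with and without olaparib, edgeR and DESeq2 called no member, 1 had an unadjusted p below 0.05 and 0% of all genes were called by edgeR and 0.00615% by DESeq2, with 1270 genes at an unadjusted p below 0.05. The member was Actc1, at a log2 fold change of 1.41 ± 0.63 (SE) with an edgeR adjusted p of 0.64. Myh4 was at -0.1 ± 1.21, Ckm at 0 ± 1.06, Casq1 at 1.74 ± 0.96 and Trim63 at -1.21 ± 1.12. The standard errors leave room for changes of several-fold either way. Between OE and NC over 4 pairs, edgeR and DESeq2 called no member, 2 had an unadjusted p below 0.05 and 0.453% of all genes were called by edgeR and 3.86% by DESeq2. The 2 members with an unadjusted p below 0.05 were Actc1 at 1.55 ± 0.63, with an edgeR adjusted p of 0.25, and Myh7 at 1.3 ± 0.61, with 0.319. Trim63 was at -2.31 ± 1.23, with an edgeR adjusted p of 0.378, and Casq1 at 1.8 ± 0.96, with 0.377. DESeq2 gave no adjusted p for 6 members, Tnni2, Atp2a1, Pdk4, Trim63, Lrrc30 and Kcnc4, in this contrast and in that of olaparib. Without EIO-744, 2 members were called lower in OE, and nothing is read from this count, as the share of all genes called there is not given.

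Outside the list, the genes most like the members' mean over the 24 tumours, among 12555 genes with a mean of at least 1 CPM, were Eef1a2, Hrc, Cacna1s, Nrap, Cmya5, Smpx, Trdn, Mypn, Trim72, Art1, Hjv and Tcap. Their Pearson r was 0.978 to 0.991, and 0.959 to 0.986 over the 22 tumours without I-732 and EIO-744. Eef1a2, a translation elongation factor of muscle and neurons, was at 378 CPM in I-732 and 92.2 CPM in EIO-744, with a median of 5.09 CPM. Cacna1s, the voltage sensor that opens Ryr1, was at 66.5 and 29.3 CPM in these 2 tumours.

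In further muscle lists fewer genes were called without I-732 and EIO-744. Of all genes tested, 21.7% were called higher and 17.5% lower with all tumours, and 15.9% higher without these 2. Of 25 other fast contractile genes, 19 were called higher and 1 lower in irradiated tumours, and 1 each way without I-732 and EIO-744. Their most abundant genes were Tpm1, Tpm2, Mybpc2 and Cmya5, and Mybpc2, the fast myosin-binding protein C, was at 1144 CPM in I-732, 103 CPM in EIO-744 and at most 76.3 CPM elsewhere. Of 14 other calcium release genes 7 were called higher and 1 lower, and 1 each way without the 2 tumours. Of 18 tested genes of muscle energy use 8 were higher and 1 lower, and 3 and 1 without them. Of 10 other slow fibre genes 4 were higher and 1 lower, and 1 each way without them. Of the heart muscle list, Nppa, Myh6 and Myl7 were at most 0.077, 0.359 and 0.0275 CPM in any tumour. Gata4 was at 10.2 to 25.1 CPM in the other 22 tumours, 10.5 CPM in I-732 and 0 in EIO-744. Tnnt2 reached 9.13 CPM among those 22, with 3.49 CPM in I-732 and 2.57 CPM in EIO-744.

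Regeneration, nerve and wasting lists gave mixed counts beside the same shares of all genes, and some of their genes are members. Of 13 tested genes of fusion and regeneration, 9 were called higher and 1 lower, and 3 each way without the 2 tumours. Of 12 tested denervation genes 4 were higher and none lower, and without the 2 tumours 1 was higher and 3 lower. Of 22 further genes of the atrophy programme 8 were higher and 2 lower, and 6 and 2 without them. Of 6 tested satellite cell genes 1 was higher, Des, which is also a member. The most abundant of that list, Vcam1 and Sdc4, are expressed by other cells too, at medians of 660 and 205 CPM in the 22 other tumours.

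Markers of neighbouring tissues were high in EIO-744, and in I-732 the endothelial sum was above the other 22 tumours. These sums are CPM on plain library totals. The 13 adipocyte genes summed to 2174 CPM in EIO-744, 938 in I-732 and 108 to 1126 in the other 22 tumours. The 15 tendon and fibroblast genes summed to 108079, 4724 and 3034 to 8470. The 10 endothelial genes summed to 1347, 581 and 166 to 372, and the 10 Schwann cell and nerve genes to 499, 249 and 154 to 272. The 13 smooth muscle and pericyte genes summed to 1281, 348 and 290 to 490. The 10 hair follicle and skin genes summed to 190, 1.37 and 1.14 to 392, with a median of 2.54 in those 22 tumours. The 14 squamous tumour genes summed to 318, 561 and 493 to 1864, and the EIO-744 sum was below every other tumour. That sum was mostly Krt8, Itgb4, Krt18 and Itga6. Krt5, a basal keratin, went the other way, at 107 CPM in EIO-744 and at most 89.2 CPM in the other 22 tumours, as did Trp63 at 7.79 and at most 4.96 CPM, and Cdh1 at 15.3 and at most 8.06 CPM. Epcam was at 4.5 CPM in EIO-744, and at most 4.31 CPM in those 22. Krt14, Krt6a, Krt16, Krt17, Sfn, Dsg3 and Itga6 in EIO-744 lay within the range of those 22. Krt18 was at 0.317 CPM in EIO-744 and 165 CPM in I-732. The part of these tissues in the muscle values was not tested.

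Over irradiated against unirradiated tumours, where 21.7% of all genes were called higher, so were 7 of 13 adipocyte, 5 of 10 Schwann, 9 of 10 macrophage and 6 of 6 tested neutrophil genes. Of the other neighbouring lists, 6 of 13 smooth muscle, 5 of 15 tendon and fibroblast, 3 of 10 endothelial, 4 of 14 squamous and 1 of 7 tested skin genes were called higher. Macrophage sums were 23864 CPM in I-732, 13884 in EIO-744 and 3268 to 24220 elsewhere. Neutrophil sums had a median of 87.7 CPM in irradiated tumours, against 30.6 CPM in unirradiated ones. Without I-732 and EIO-744 where 15.9% of all genes were called higher, the counts were 3 for adipocyte, 2 for Schwann, 8 for macrophage, 4 for neutrophil, 3 for smooth muscle, 4 for tendon, 2 for endothelial, 4 for squamous and 1 for skin genes.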

How the data were processed

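Whole tumours were profiled by RNA sequencing. The table deposited by the authors holds raw read counts per gene for 24 tumours, with no normalization. Total RNA was extracted in TRIzol and libraries were made with the VAHTS Universal V5 kit, per the labels' protocols. The submitters' processing notes name fastp, HISAT2 and HTSeq and the build mm10. Versions, annotation and strand setting are not given in the sources used here, so counts of overlapping, antisense and near-identical genes are uncertain.

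The members and all gene lists were chosen with earlier results of these data known. Groups follow the coded identifiers, and mouse numbers pair no tumours. The p-values rest on the spread between tumours of the same group. For each gene that spread was estimated over all 8 groups together, so a tumour outside a pair of groups also enters the p-values of that pair. All 24 libraries in 8 groups were fitted in edgeR 4.0.16 (R 4.3.3) with TMM scaling and filterByExpr, which kept 16560 genes and all 35 members. The quasi-likelihood test was adjusted by Benjamini-Hochberg over all genes tested, at 0.05. The effects of radiation, olaparib and cell line are means over 4 pairs of groups each. Correlations used log2(CPM + 0.5). Shares of counts carry Wilson 95% intervals. These cover counting error only, as the reads carry no molecular identifiers that the labels name. Lengths are those of the longest GENCODE transcript of each gene, and myosin shares need at least 100 counts. Positions are from RefSeq on the build named beside them.

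The values given in full follow a rule by gene role, and other lists are given by counts and up to 4 most abundant genes. Pax7, Myf5, Krt8, Krt18, Nppa, Myh6 and Myl7 are named beside it, as defining markers. The other satellite cell genes are named with Pax7 and Myf5. The alternatives were DESeq2 1.42.0 (size factors and test), no filter on low counts, fits on 2 groups alone, the written labels, plain library totals, no length correction, sums without 8 genes and leaving out each tumour. Leaving out I-732 and EIO-744 together was chosen after seeing the data. The fits were tested on simulated counts with the same spread for every gene and no outlying tumour. That setting is unlike these data, so the test says nothing on calls set by single tumours.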

Additional observations from a re-analysis of the deposited data

Results flagged for a closer look

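The fitted log2 fold change of Fbxo32 had opposite signs in 2 pairs of groups. It was -0.95 ± 0.75 (SE) in EIO over EO, which edgeR did not call, and 3.26 ± 0.8 in I over S. Fbxo32 was at 36.2, 41.0 and 44.3 CPM in EIO tumours, against 95.5, 45.9 and 93.4 CPM in EO tumours. It was at 921, 64.5 and 55.3 CPM in I tumours, against 55.0, 37.9 and 15.9 CPM in S tumours. Neither pair overlapped, but the nearest tumours were close, at 44.3 against 45.9 CPM and 55.3 against 55.0 CPM. Of all genes, 14.4% had I above S without overlap. The share with EIO below EO is not given, so nothing is read from the lack of overlap. The fitted log2 fold change was 4.21 higher in I over S than in EIO over EO, and 1.65 higher without I-732. The difference was not tested.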

How the results depend on the processing

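With I-732 and EIO-744 both left out, the members called higher numbered 3 for the mean radiation contrast, 5 in I against S and 1 in IO against O, against 22, 12 and 0 with all tumours. Of all genes, 15.9% were called higher in the mean contrast without both, against 21.7% with all tumours. The written labels gave 0 for the mean contrast, where 0.00604% of all genes were called. The DESeq2 test gave 10 in EIO against EO, where 11.2% of all genes were called higher, against 0 by edgeR, where 5.4% were. Fits on the compared groups alone gave 0 in I against S, with 29 members tested, and 2 in IO against O, with 31 tested. Leaving out each tumour in turn gave 4 to 26 for the mean contrast, 0 to 25 in I against S, 0 to 8 in EIO against EO, and 0 to 2 lower for OE against NC. The cause was not tested. For the pairs of groups refitted without tumours or alone, and for these ranges, the share of all genes called is not given. Nothing is read from those counts. Without the 8 genes that other cells can express, the share of counts was 2.14% in I-732 and 0.517% in EIO-744. On plain library totals Myh4 in I-732 was at 5456 CPM and Myh1 in EIO-744 at 906. No length correction moved the Myh4 share to 96.2% in I-732 and 16.0% in EIO-744. Of 580 recomputed fold changes of the 20 members given in full, all on the mean radiation contrast, 574 were positive, and 59 moved by more than the SE. Of the 20, 19 moved so without I-732 and EIO-744, 16 without EIO-744, 14 by the written labels and 7 without I-732. The list was in part selected on that contrast and the refits share most tumours, so the signs are description only. No paired analysis was possible because the tumours carry mouse numbers that no 2 groups share. With 3 tumours a group and a spread set by single tumours, differences of several-fold cannot be told from none, and under about 3 counts a gene is not detectable.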

Other observations

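Genes of the wasting, nerve and regeneration lists that stood out in I-732 are given here as values, chosen after their values were seen. Klf15, a transcription factor that glucocorticoids induce in muscle, was at 85.0 CPM in I-732 and 22.3 CPM in EIO-744, and at most 3.17 CPM in the other 22 tumours. Musk, the receptor kinase of the nerve-muscle synapse, was at 42.0 and 5.57 CPM in these 2 tumours and at most 1.21 CPM elsewhere. Fbxo31, an F-box gene, was at 297 and 34.8 CPM, and at most 41.9 CPM elsewhere. Gadd45a, a stress gene that also rises in denervated muscle, was at 96.0 and 25.1 CPM, and 7.37 to 22.6 CPM elsewhere. Igfn1 was at 39.7 CPM in I-732, 0.0633 CPM in EIO-744 and at most 4.36 CPM elsewhere.

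Cdkn1c, a cell cycle inhibitor, was at 92.2 CPM in EIO-744, 8.18 CPM in I-732 and at most 2.39 CPM in the other 22 tumours. Chrna1, a subunit of the muscle acetylcholine receptor, was at 14.6 CPM in I-732, 2.12 CPM in EIO-744 and 6.83 to 45.3 CPM in the other 22 tumours. Both genes were also chosen after their values were seen.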
